A study of Mus musculus with 9 samples.

Results

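The mRNAs of 10 genes were followed here from differentiating spermatogonia into the first spermatocytes of meiosis. They encode the axis proteins HORMAD1 and HORMAD2, the ATPase TRIP13, the DNA damage kinases ATR, ATM, CHK1 and CHK2, and the checkpoint partners TOPBP1, BRCA1 and MDC1. The genes were chosen by name, for their place in this pathway, and all 10 were found among the 24505 genes of the count matrix and passed the filter on low counts in every comparison. Reads of mRNA were counted in 9 libraries, 3 for each of 3 groups of germ cells sorted from pups of Uchl1-eGfp mice, a line made on C57BL/6 and outcrossed to CD-1. The Uchl1 promoter drives EGFP in this line, brightly in spermatogonia and dimly in preleptotene (PL) spermatocytes, and cells of at least 5 pups from a litter were pooled.

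All groups came from testes in which spermatogenesis had been synchronized. Each pup was dosed with bis-(dichloroacetyl)-diamine (WIN), a blocker of retinoic acid (RA) synthesis, at 100 µg per g body weight starting on postnatal day (P) 1, and was injected on P11 with 10 µl of RA at 10 µg per µl. Intermediate and type B (In/B) differentiating spermatogonia were taken at P17. RA-sufficient PL spermatocytes were taken at P19 after WIN had been stopped, and RA-deficient PL spermatocytes were taken at P19 from pups in which it was continued. The paper calls its P17 In/B spermatogonia RA-sufficient, so RA-deficient PL differed from In/B in continued WIN as well as in stage and age. No group without WIN or without the RA injection was analysed here, so every value is relative to synchronized testes. The comparisons address how these mRNAs differed between In/B spermatogonia and PL spermatocytes, and whether blocking RA synthesis after the first dose altered their levels in PL spermatocytes.

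In meiotic prophase, HORMAD1 and HORMAD2 coat chromosome axes that have not yet synapsed and help to bring ATR to them, and TRIP13 removes the HORMADs from axes as synapsis proceeds. ATR, activated with the help of TOPBP1 and aided by BRCA1, phosphorylates the histone variant H2AX, and MDC1 spreads this mark along chromatin, which in spermatocytes is best known for silencing the unsynapsed sex chromosomes. ATM responds to double-strand breaks, and CHK1 and CHK2 are the kinases that carry ATR and ATM signals onward to the cell cycle machinery.

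The libraries held between 12612959 and 27042274 counted reads. Values per library are given as CPM, a count divided by the size of its library after TMM scaling and put on a common scale, and a gene was called where its log2 fold change was beyond 1 in either direction with an adjusted p below 0.05. The PL label was checked against markers. Of 8 early meiotic genes, 6 were called higher than In/B in both PL groups, with Sycp3 at 81.0 to 104 CPM in In/B, 403 to 612 CPM in RA-sufficient PL and 532 to 701 CPM in RA-deficient PL. Spo11 and Meiob, among these 6, split the RA-deficient group. Spo11 was at 31.6, 27.9 and 124 CPM there, against 44.7 to 129 CPM in RA-sufficient PL. Meiob was at 57.5, 49.7 and 238 CPM, against 88.4 to 182 CPM. Libraries 1 and 2 were not below the RA-sufficient range for Sycp1, Sycp3, Dmc1 and Smc1b. The other 2, Rec8 and Stra8, overlapped In/B in both PL groups and were not called, with log2 fold changes of -0.92 and 0.97 in RA-sufficient PL and of -1.32 and 1.34 in RA-deficient PL. Most of the 7 markers of differentiating spermatogonia split the RA-deficient group. Kit, the receptor of differentiating spermatogonia, stood at 561, 521 and 20.3 CPM in RA-deficient PL libraries 1, 2 and 3, against 327 to 404 CPM in In/B and 20.2 to 41.0 CPM in RA-sufficient PL. Dmrt1, a spermatogonial transcription factor, split in the same way, at 460, 485 and 111 CPM in RA-deficient PL. Sohlh1, Sohlh2 and Uchl1 were also highest in libraries 1 and 2 of that group. Sohlh2 was at 203, 195 and 103 CPM there. All 3 values were above the 79.4 to 79.5 CPM of In/B and the 42.2 to 52.4 CPM of RA-sufficient PL. In library 3, Uchl1 was at 991 CPM, above the 425 to 613 CPM of RA-sufficient PL and below all In/B libraries. Dmrtb1 did not split, at 93.5, 81.8 and 65.0 CPM against 281 to 366 CPM in In/B and 70.7 to 162 CPM in RA-sufficient PL. Ccnd2 did not split either, at 18.4, 18.2 and 14.8 CPM. These values were near the 16.5 to 23.3 CPM of In/B and below the 49.8 to 79.3 CPM of RA-sufficient PL. Libraries 1 and 2 of RA-deficient PL thus went against their label by the 5 of the 7 markers that split. By Sohlh2 library 3 went against it as well, and by Dmrtb1 no RA-deficient PL library did. Ccnd2 was called higher in RA-sufficient PL than in In/B, at a log2 fold change of 1.76. That is the opposite direction to the rest of its list, so Ccnd2 could not serve to judge the label. Results that rest on them are also given for library 3 alone, a choice made after the data were seen. Library 3 differed from libraries 1 and 2 in the marker sums below as well, so its values are not a correction for purity.

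Markers of other cells differed between the groups too. The summed level of 7 Sertoli cell genes was 2751 to 3581 CPM in RA-sufficient PL, 61.8 to 337 CPM in In/B and 277 to 496 CPM in RA-deficient PL, and Clu made up most of it. All 7 were called higher in RA-sufficient PL than in In/B, and all 7 were called lower in RA-deficient than in RA-sufficient PL. Of these, Fshr was at 0 in RA-deficient PL libraries 1 and 2. The summed level of 8 pachytene and spermatid genes was 272 to 996 CPM in RA-sufficient PL, 33.7 to 93.0 CPM in In/B and 7.04 to 157 CPM in RA-deficient PL. Library 3 was the highest of the RA-deficient PL group in both sums. Its Sertoli sum was 496 CPM against 277 and 293 CPM in libraries 1 and 2. Its pachytene and spermatid sum was 157 CPM against 7.04 and 10.1 CPM. The part of either marker list in the results that follow was not tested. In sorted populations such as these, fewer cells of a type and less RNA per cell cannot be told apart.

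Of the 10 genes, 7 were called between RA-sufficient PL and In/B, against 45.4% of all 15001 genes tested. Hormad1, Hormad2, Atr and Mdc1 were the 4 called higher, beside 26.1% of all genes, and Trip13, Chek1 and Chek2 were the 3 called lower, beside 19.3%. Between RA-deficient PL and In/B, 6 were called, against 23.2% of 14877 genes, with Atm joining the 4 called higher, beside 11.4%, and Chek2 as the only gene called lower, beside 11.8%. Between RA-deficient and RA-sufficient PL, 1 of the 10 was called, a share below the 15.5% of all 15352 genes. This was Trip13, called higher, beside 4.47% of all genes called higher, and 0 were called lower, beside 11%. That count of 0 by edgeR's quasi-likelihood test was also 0 with DESeq2 and 0 at an unadjusted p under 0.05, as all 10 estimates were positive. The In/B libraries serve in the first pair of comparisons and the PL libraries are shared as well, so the 3 comparisons are not independent of each other. The study's methods describe 2 or 3 independent cell preparations without giving the number for each of these groups. A group of 3 libraries may thus hold fewer than 3 preparations, and p-values measure the spread between these libraries, part of which may be technical. Each group had 1 closest pair, by chi-square per degree of freedom of the counts. These were In/B 2 and 3 (5.96), RA-sufficient PL 2 and 3 (10.2) and RA-deficient PL 1 and 2 (19.3), against 33.5 to 102 for other pairs.

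**Figure D1:**
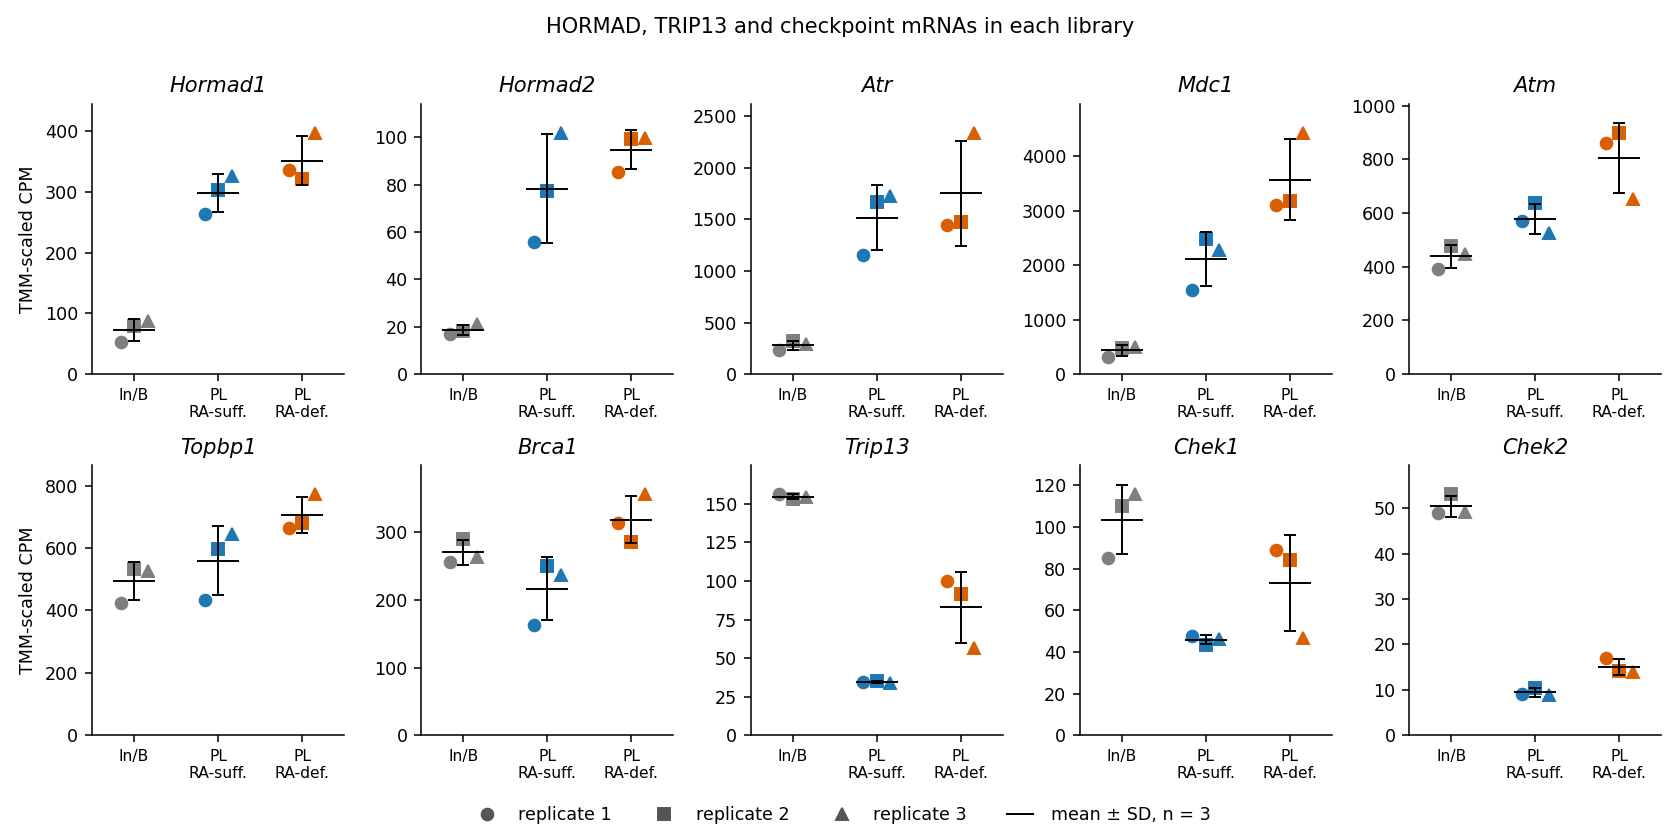
TMM-scaled CPM of each of the 10 genes (vertical axis, from 0) in In/B spermatogonia, RA-sufficient PL and RA-deficient PL spermatocytes, with a symbol for each replicate library and a bar for the mean ± SD (n = 3). Hormad1, Hormad2, Atr and Mdc1 sit far above In/B in all 6 PL libraries, whereas Trip13 lies at 34.7, 34.9 and 33.9 CPM in RA-sufficient PL, with RA-deficient PL between these and In/B.

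The 4 mRNAs called higher in both PL groups are those of the axis proteins, the kinase that they recruit, and the protein that spreads its chromatin mark. Promoter sequences are shown for these 4, because they moved in the same direction, and for Trip13 and Chek2, the pair with the largest falls in RA-sufficient PL. Each sequence is up to 250 bases before the RefSeq start of transcription (table build GRCm38.p6), placed on mm9 by exact match and read 5′ to 3′ on the strand of the gene. The Hormad2 sequence stops after 227 bases, where the GENCODE M1 model of that gene begins.
Hormad1 (chr3:95363349-95363598, plus strand): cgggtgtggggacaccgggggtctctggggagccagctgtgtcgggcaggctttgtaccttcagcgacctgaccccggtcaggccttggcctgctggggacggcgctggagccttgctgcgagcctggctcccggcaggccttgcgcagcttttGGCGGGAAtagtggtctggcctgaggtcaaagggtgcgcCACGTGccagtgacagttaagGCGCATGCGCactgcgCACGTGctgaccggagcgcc
Hormad2 (chr11:4341109-4341335, minus strand): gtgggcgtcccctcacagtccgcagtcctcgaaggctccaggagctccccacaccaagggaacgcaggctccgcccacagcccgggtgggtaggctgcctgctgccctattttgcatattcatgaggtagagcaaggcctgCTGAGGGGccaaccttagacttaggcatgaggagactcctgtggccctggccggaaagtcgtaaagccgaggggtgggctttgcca
Atr (chr9:95757766-95758015, plus strand): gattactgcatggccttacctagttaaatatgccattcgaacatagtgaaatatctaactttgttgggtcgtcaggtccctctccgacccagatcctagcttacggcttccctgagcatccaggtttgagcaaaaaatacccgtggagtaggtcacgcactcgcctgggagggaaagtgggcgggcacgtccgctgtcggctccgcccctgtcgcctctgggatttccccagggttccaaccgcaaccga
Mdc1 (chr17:35978193-35978442, plus strand): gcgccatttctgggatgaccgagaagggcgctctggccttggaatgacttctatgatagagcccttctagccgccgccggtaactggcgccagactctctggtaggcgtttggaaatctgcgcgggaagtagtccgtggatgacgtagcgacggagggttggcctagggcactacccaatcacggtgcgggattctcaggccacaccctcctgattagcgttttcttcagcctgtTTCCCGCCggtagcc
Trip13 (chr13:74075216-74075465, minus strand): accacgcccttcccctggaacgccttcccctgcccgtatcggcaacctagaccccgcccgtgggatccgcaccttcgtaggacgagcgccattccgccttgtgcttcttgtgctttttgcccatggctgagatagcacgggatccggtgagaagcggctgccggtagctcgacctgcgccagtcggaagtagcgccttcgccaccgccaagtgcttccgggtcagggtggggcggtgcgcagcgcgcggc
Chek2 (chr5:111268752-111269001, plus strand): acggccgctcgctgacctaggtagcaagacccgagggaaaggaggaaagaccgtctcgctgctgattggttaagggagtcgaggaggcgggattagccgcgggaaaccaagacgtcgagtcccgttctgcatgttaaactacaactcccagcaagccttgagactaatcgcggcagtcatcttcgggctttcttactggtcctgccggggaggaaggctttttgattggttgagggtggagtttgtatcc
Capitals mark matches to 4 motifs, searched on both strands in the 300 bases from 250 before the start to 50 after it: the E2F half-site GGCGGGAA, the E-box CACGTG, the NRF1 half-site GCATGCGC and the STRA8 motif CNCCTCAG. The first capital run of Hormad1 is an E2F half-site that begins 96 bases before the start, followed by an E-box at 57 bases, a pair of NRF1 half-sites that overlap on opposite strands, and a further E-box at 20 bases. Hormad2 held a STRA8 motif on its opposite strand, and Mdc1 held an E2F half-site on its opposite strand 15 bases before the start. Outside the sequences shown, Atm held an NRF1 half-site and Chek1 an E2F half-site 43 bases past its start. The E2F half-site was in 3 of the 10 promoters and in 2.24% of all 27025 promoters of this length. The NRF1 half-site was in 2 of the 10 and in 2.80% of all, the E-box in 1 and 7.24%, and the STRA8 motif in 1 and 7.97%. The windows of Atr, Trip13 and Chek2 held none of these letters.

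Hormad1, on chromosome 3 (95363599 to 95391593, mm9, plus strand, 16 exons when overlapping ones are merged), stood at 52.8, 78.8 and 86.8 CPM in In/B. It reached 264, 303 and 325 CPM in RA-sufficient PL, and 336, 321 and 397 CPM in RA-deficient PL. In/B did not overlap with either PL group, while the PL groups overlapped each other. Hormad1 was 4.25-fold higher in RA-sufficient PL than in In/B, a log2 fold change of 2.09 ± 0.19 (SE; edgeR's quasi-likelihood test, Benjamini-Hochberg adjusted p = 3.71e-05). It was 5.42-fold higher in RA-deficient PL than in In/B, a log2 fold change of 2.44 ± 0.20. The PL groups differed by a log2 fold change of 0.24, with a 95% interval from -0.04 to 0.51 (edgeR's quasi-likelihood test, Benjamini-Hochberg adjusted p = 0.183).

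Hormad2, on chromosome 11 (4245817 to 4341108, minus strand, 14 merged exons), had the lower level of the HORMAD pair in each library. It was at 16.9, 18.2 and 21.1 CPM in In/B, at 55.7, 77.4 and 102 CPM in RA-sufficient PL, and at 85.2, 99.3 and 99.9 CPM in RA-deficient PL. Again In/B lay below every PL library and the PL groups overlapped. The log2 fold change against In/B was 2.12 ± 0.23 in RA-sufficient PL (edgeR's quasi-likelihood test, Benjamini-Hochberg adjusted p = 9.24e-05) and 2.503 ± 0.17 in RA-deficient PL. From RA-sufficient to RA-deficient PL it was 0.28, with an interval from -0.21 to 0.76. The HORMAD pair kept a similar proportion, with 3.12 to 4.33 reads of Hormad1 for each read of Hormad2 in In/B, 3.20 to 4.74 in RA-sufficient PL and 3.24 to 3.97 in RA-deficient PL. These are ratios of reads within a library, which the scaling between libraries does not touch, and the 3 ranges overlapped.

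Trip13, on chromosome 13 (74049910 to 74075215, minus strand, 13 merged exons), encodes the ATPase that strips the HORMADs from axes, and its mRNA was called lower in RA-sufficient PL, where theirs were called higher. It was at 156, 153 and 154 CPM in In/B, the narrowest spread of the 10 genes there relative to its mean. In RA-sufficient PL it was at 34.7, 34.9 and 33.9 CPM, a fall of 4.31-fold and a log2 fold change of -2.11 ± 0.11 (edgeR's quasi-likelihood test, Benjamini-Hochberg adjusted p = 1.08e-05). In RA-deficient PL it was at 100.1, 91.8 and 56.8 CPM, below all In/B libraries and above all RA-sufficient PL libraries. That group differed from In/B by a log2 fold change of -0.73 ± 0.21 (edgeR's quasi-likelihood test, Benjamini-Hochberg adjusted p = 0.0275), short of the minimum fold. It differed from RA-sufficient PL by a log2 fold change of 1.26 ± 0.23, with an interval from 0.72 to 1.80 (edgeR's quasi-likelihood test, Benjamini-Hochberg adjusted p = 0.0102).

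The higher Trip13 level in RA-deficient PL was carried most by libraries 1 and 2, in which Kit was at 561 and 521 CPM. With library 3 alone the log2 fold change against RA-sufficient PL was 0.72 (edgeR's quasi-likelihood test, Benjamini-Hochberg adjusted p = 0.0618), which is no longer called, and against In/B it was -1.37 (edgeR's quasi-likelihood test, Benjamini-Hochberg adjusted p = 0.00127), which is called. The part of spermatogonial RNA in the Trip13 difference was not tested beyond these values. Reads of Hormad1 for each read of Trip13 were 0.338 to 0.563 in In/B and 7.60 to 9.59 in RA-sufficient PL. They were 3.36, 3.50 and 6.98 in RA-deficient PL, between the other groups in all 3 libraries.

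**Figure D2:**
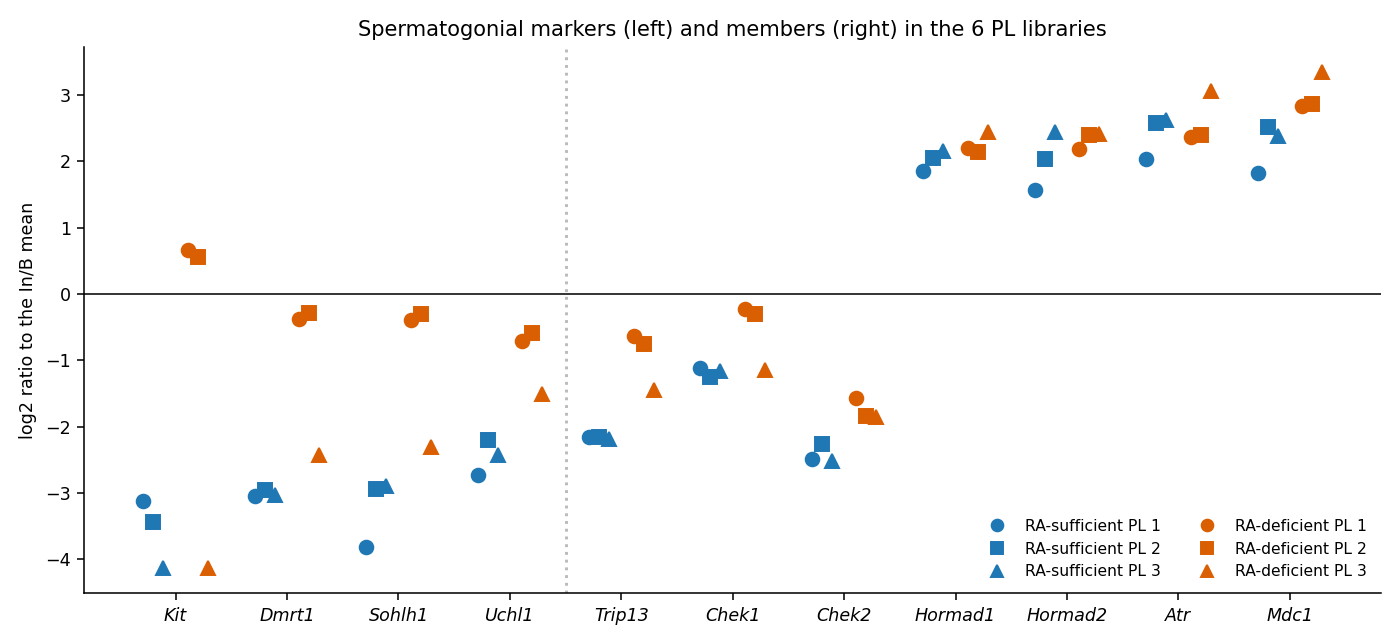
log2 ratio of each PL library to the In/B mean (vertical axis) for 4 spermatogonial markers, left of the dotted line, and for 7 of the 10 genes, right of it, with colour for the group and symbol for the replicate. RA-deficient PL libraries 1 and 2 lie near or above the In/B mean for Kit, Dmrt1 and Sohlh1, and nearer to it than library 3 for all 7 genes on the right, with the widest gaps for Trip13, Chek1, Atr and Mdc1. Uchl1 is the gene whose promoter was used for sorting.

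Among the kinases at the head of the pathway, Atr was called higher in both PL groups. Atm differed from In/B in both groups by adjusted p and passed the minimum fold in RA-deficient PL. Atr, on chromosome 9 (95758016 to 95852063, plus strand, 47 merged exons), was at 235, 319 and 287 CPM in In/B. In RA-sufficient PL it was at 1151, 1673 and 1728 CPM, which was 5.63-fold higher (log2 fold change 2.49 ± 0.18, edgeR's quasi-likelihood test, Benjamini-Hochberg adjusted p = 1.81e-05). In RA-deficient PL it was at 1446, 1474 and 2339 CPM, which was 7.03-fold higher than In/B (log2 fold change 2.81 ± 0.21). The PL groups overlapped, with a log2 fold change of 0.21 and an interval from -0.31 to 0.73, and the sign of this value turned without library 3 of RA-deficient PL, at -0.048. Of the exon bases of Atr, 187 (2.2%) are shared with a pseudogene on the opposite strand, 1700065D16Rik, and whether strand was used in counting is not given in the sources used here.

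Atm, also on chromosome 9 (53247254 to 53344845, minus strand, 63 merged exons), was at 393, 478 and 447 CPM in In/B, at 571, 638 and 528 CPM in RA-sufficient PL, and at 863, 899 and 654 CPM in RA-deficient PL. The 3 groups did not overlap. In RA-sufficient PL the log2 fold change against In/B was 0.46 ± 0.12 (edgeR's quasi-likelihood test, Benjamini-Hochberg adjusted p = 0.00866), short of the minimum fold. In RA-deficient PL it was 1.05 ± 0.14 (edgeR's quasi-likelihood test, Benjamini-Hochberg adjusted p = 0.00104), just past it. That call was lost for library 3 alone, at 0.65 (edgeR's quasi-likelihood test, Benjamini-Hochberg adjusted p = 0.00974), without TMM scaling, at 0.73, in the fit of all 9 libraries, at 0.91, and without any of In/B library 1, RA-deficient PL library 1 or RA-deficient PL library 2, at 0.97, 0.97 and 0.93. Between the PL groups the log2 fold change was 0.47 ± 0.15 (edgeR's quasi-likelihood test, Benjamini-Hochberg adjusted p = 0.0629). Reads of Atr for each read of Atm were 0.598 to 0.668 in In/B and 2.01 to 3.28 in RA-sufficient PL. In RA-deficient PL they were 1.68, 1.64 and 3.57.

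The activators and scaffolds of the ATR branch split between Mdc1, which had the largest log2 fold change of the 10 genes in RA-deficient PL against In/B, and Topbp1 and Brca1, which were called in 0 of the 3 comparisons. Mdc1, on chromosome 17 (35978460 to 35996615, plus strand, 16 merged exons), was at 318, 483 and 504 CPM in In/B. It was at 1544, 2484 and 2281 CPM in RA-sufficient PL (log2 fold change 2.33 ± 0.23, edgeR's quasi-likelihood test, Benjamini-Hochberg adjusted p = 5.50e-05) and at 3093, 3176 and 4423 CPM in RA-deficient PL (3.20 ± 0.21, edgeR's quasi-likelihood test, Benjamini-Hochberg adjusted p = 6.45e-05). The 3 groups did not overlap. In linear terms Mdc1 was 5.03-fold and 9.21-fold above In/B. RA-deficient PL was 1.70-fold above RA-sufficient PL, a log2 fold change of 0.76 ± 0.20 (edgeR's quasi-likelihood test, Benjamini-Hochberg adjusted p = 0.0333) short of the minimum fold, and with library 3 alone this was 1.08 (edgeR's quasi-likelihood test, Benjamini-Hochberg adjusted p = 0.0365), which is called. Without any TMM scaling it was 0.58 (edgeR's quasi-likelihood test, Benjamini-Hochberg adjusted p = 0.0834).

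Topbp1, on chromosome 9 (103207545 to 103252762, plus strand, 28 merged exons), encodes the direct activator of ATR. It was at 425, 534 and 528 CPM in In/B, at 435, 597 and 645 CPM in RA-sufficient PL, and at 665, 681 and 772 CPM in RA-deficient PL. RA-sufficient PL overlapped In/B, with a log2 fold change of 0.23 and an interval from -0.14 to 0.60, whereas RA-deficient PL lay above both groups. Its log2 fold change against In/B was 0.68 ± 0.12 (edgeR's quasi-likelihood test, Benjamini-Hochberg adjusted p = 0.00317). Against RA-sufficient PL it was 0.34 ± 0.14 (edgeR's quasi-likelihood test, Benjamini-Hochberg adjusted p = 0.128).

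Brca1, on chromosome 11 (101350078 to 101413269, minus strand, 23 merged exons), was at 257, 291 and 264 CPM in In/B, at 164, 251 and 237 CPM in RA-sufficient PL, and at 314, 287 and 357 CPM in RA-deficient PL. All RA-sufficient PL libraries lay below all In/B libraries, by a log2 fold change of -0.26 with an interval from -0.63 to 0.10. RA-deficient PL overlapped In/B at a log2 fold change of 0.41 ± 0.11 (edgeR's quasi-likelihood test, Benjamini-Hochberg adjusted p = 0.0254) and lay wholly above RA-sufficient PL at 0.56 ± 0.16 (edgeR's quasi-likelihood test, Benjamini-Hochberg adjusted p = 0.0443). Without TMM scaling these fell to 0.09 (edgeR's quasi-likelihood test, Benjamini-Hochberg adjusted p = 0.574) and 0.37 (edgeR's quasi-likelihood test, Benjamini-Hochberg adjusted p = 0.151). Reads of Mdc1 for each read of Brca1 were 1.24 to 1.91 in In/B, 9.43 to 9.91 in RA-sufficient PL and 9.85 to 12.4 in RA-deficient PL.

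**Figure D3:**
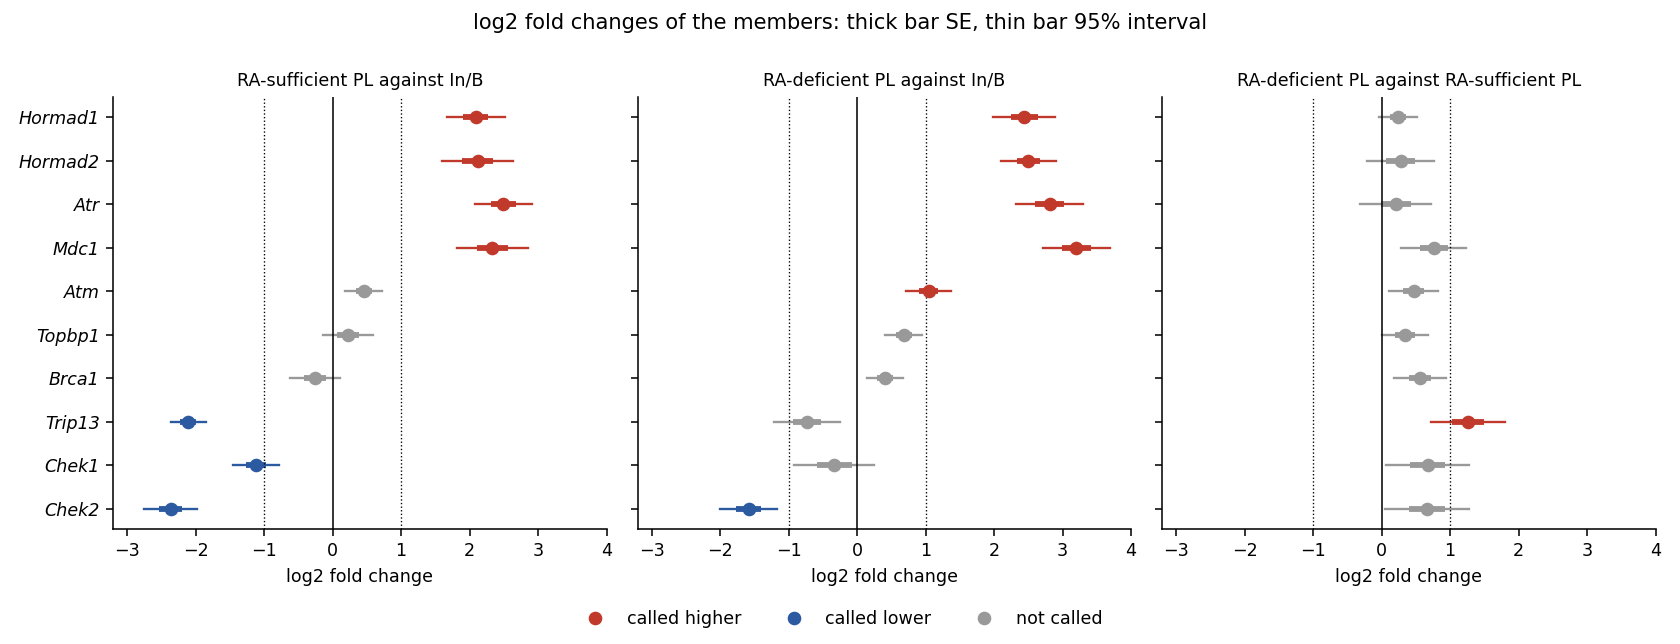
log2 fold change of each of the 10 genes (horizontal axis) in the 3 comparisons, with a thick bar for the SE, a thin bar for the 95% interval and dotted lines at the minimum fold of 1 in either direction. 7, 6 and 1 of the 10 genes are called, and all 10 points lie right of 0 between the PL groups.

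Both effector kinases were called lower in RA-sufficient PL, and Chek2 in RA-deficient PL as well. Chek2, which encodes CHK2, the kinase that ATM activates, lies on chromosome 5 (111269036 to 111303152, plus strand, 15 merged exons) and was at 48.9, 53.1 and 49.2 CPM in In/B. It was at 8.98, 10.5 and 8.82 CPM in RA-sufficient PL, 5.14-fold lower (log2 fold change -2.36 ± 0.17, edgeR's quasi-likelihood test, Benjamini-Hochberg adjusted p = 1.73e-05). In RA-deficient PL it was at 16.96, 14.1 and 13.9 CPM, 2.99-fold lower than In/B (log2 fold change -1.58 ± 0.18, edgeR's quasi-likelihood test, Benjamini-Hochberg adjusted p = 4.70e-04). No libraries of the 3 groups overlapped, and library 3 of RA-deficient PL, low in Kit, was close to libraries 1 and 2. RA-deficient against RA-sufficient PL gave a log2 fold change of 0.66 ± 0.26 (edgeR's quasi-likelihood test, Benjamini-Hochberg adjusted p = 0.109).

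Chek1, which encodes CHK1, the kinase that ATR activates, lies on chromosome 9 (36516067 to 36534650, minus strand, 14 merged exons). It was at 84.9, 110.1 and 116 CPM in In/B and at 47.8, 43.5 and 46.2 CPM in RA-sufficient PL, with no overlap (log2 fold change -1.12 ± 0.15, edgeR's quasi-likelihood test, Benjamini-Hochberg adjusted p = 2.39e-04). RA-deficient PL overlapped both ranges, at 89.0, 84.0 and 46.8 CPM. Library 1 lay within the In/B range, library 2 just below it, and library 3 at the RA-sufficient level. For the group the log2 fold change against In/B was -0.33 ± 0.25 (edgeR's quasi-likelihood test, Benjamini-Hochberg adjusted p = 0.358), and for library 3 alone it was -1.07 (edgeR's quasi-likelihood test, Benjamini-Hochberg adjusted p = 0.00967), which is called. Against RA-sufficient PL it was 0.67 ± 0.26 (edgeR's quasi-likelihood test, Benjamini-Hochberg adjusted p = 0.0989). Reads of Atr for each read of Chek1 were 2.48 to 2.90 in In/B, 24.1 to 38.5 in RA-sufficient PL, and 16.2, 17.6 and 50.003 in RA-deficient PL.

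Genes of S phase were set beside the effector kinases, since CHK1 acts on replicating cells. The summed level of 10 S-phase genes was 2976 to 3065 CPM in In/B, 1389 to 1938 CPM in RA-sufficient PL and 2842 to 3192 CPM in RA-deficient PL. Comparing RA-sufficient PL with In/B, 4 of the 10 were called lower, namely Mcm2, Mcm3, Mcm4 and Mcm7, and 0 higher, beside 19.3% and 26.1% of all genes. In RA-deficient PL against In/B 1 was called lower and 2 higher, beside 11.8% and 11.4% of all genes. Between the PL groups 1, Rrm2, was called higher in RA-deficient PL, beside 4.47% of all genes. All 10 S-phase genes had a log2 fold change above 0 between the PL groups, with a median of 0.86. Of them, 8 had no overlap, beside 47.4% of all genes. Besides Rrm2, 6 had an adjusted p below 0.05, as had 3629 of all 15352 genes tested. Whether S-phase content accounts for any of the 10 genes was not tested.

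Across the PL groups all 10 log2 fold changes were above 0, from 0.21 for Atr to 1.26 for Trip13, with a median of 0.51 against -0.09 over all 15352 genes tested and 0.86 over the 10 S-phase genes. This held with RLE or library size scaling, and failed for Atr without library 3 of RA-deficient PL. The libraries of 6 of the 10 genes did not overlap between the PL groups, beside 47.4% of all genes. Against In/B, 9 of 10 did not overlap in RA-sufficient PL, beside 71.5% of all genes, and 8 of 10 in RA-deficient PL, beside 54.6%. The median log2 fold change of the 10 genes against In/B was 0.34 in RA-sufficient PL, with 0.04 over all genes, and 0.86 in RA-deficient PL, with 0.0038 over all genes. Library size scaling lowered the median of all genes by 0.32 in RA-deficient PL against In/B and by 0.18 between the PL groups, so that 28.9% rather than 49.1% of calls were higher in the former and 17.5% rather than 28.8% in the latter. Under that scaling Trip13 was also called lower in RA-deficient PL than in In/B, at -1.05 (edgeR's quasi-likelihood test, Benjamini-Hochberg adjusted p = 0.00613). Fewer genes were detected in RA-deficient PL libraries, 14769 to 15327, than in the others, 16758 to 18434.

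To compare levels between genes, CPM were divided by the kilobases of merged exon in GENCODE M1. In In/B, Topbp1 had the highest level at 94.8 ± 11.6 CPM per kb (SD, n = 3), followed by Trip13 at 68.2 ± 0.68 and Mdc1 at 58.6 ± 13.7. Topbp1 was above Trip13 in all libraries, whereas Trip13 and Mdc1 overlapped. Atm, Hormad1, Atr and Brca1 came next, from 42.5 down to 31.9 CPM per kb with overlapping ranges between neighbours, then Chek2 at 22.4 and Chek1 at 22.3, which also overlapped. Hormad2 was last at 6.86 ± 0.79 CPM per kb.

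The order changed in PL. In RA-sufficient PL, Mdc1 led at 283 ± 66.6 CPM per kb, above Atr at 179 ± 37.4 and Hormad1 at 172 ± 18.0, which overlapped each other. Topbp1 followed at 107 ± 21.1 and Atm at 56.0 ± 5.38. Hormad2 at 28.7 ± 8.44 and Brca1 at 25.6 ± 5.51 overlapped. Trip13 had moved from rank 2 to rank 8, at 15.2 ± 0.22, with Chek1 at 9.86 ± 0.47 and Chek2 at 4.20 ± 0.41 below it and no overlap among these 3. RA-deficient PL had the same first 5 genes, led by Mdc1 at 480.3 ± 100.4 CPM per kb and Atr at 206 ± 59.8. Brca1, Trip13 and Hormad2 followed at 37.6, 36.6 and 34.7 CPM per kb, with overlapping ranges, and Chek1 at 15.8 and Chek2 at 6.67 were again last.

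**Figure D4:**
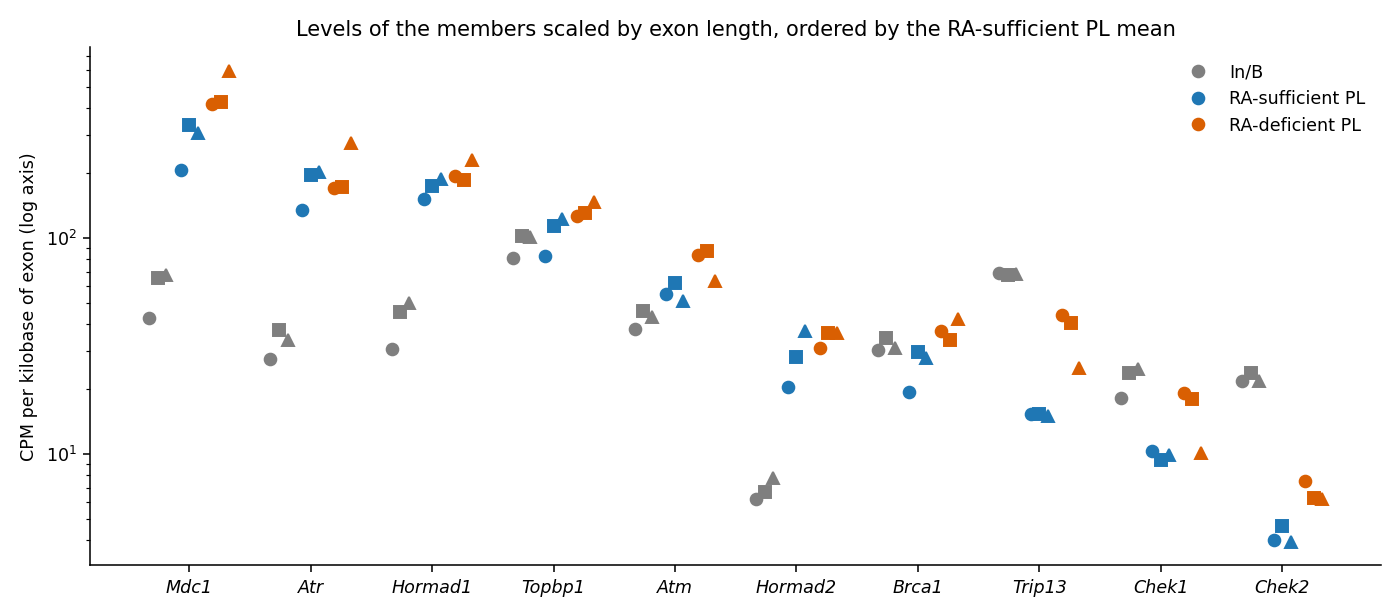
Level of each of the 10 genes in CPM per kilobase of merged exon (vertical log axis) in the 9 libraries, with colour for the group, circles, squares and triangles for replicates 1, 2 and 3, and genes ordered by their mean in RA-sufficient PL. Mdc1, Atr and Hormad1 rank highest in both PL groups, and Trip13 drops from 68.2 CPM per kb in In/B to 15.2 in RA-sufficient PL.

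For each gene, the genes with the most similar pattern were sought among the 13986 genes that averaged 1 CPM or more, by the root mean square difference of log2(CPM + 1) around the mean of the 9 libraries. Among the closest to Hormad1 were Synj1 and Pdlim5, at 0.12 and 0.13 log2 units, and the closest to Hormad2 were Dnpep, Zswim4 and Ddb2, at 0.16 to 0.18. Hormad1 and Hormad2 were each the closest of the 10 to the other, at 0.20. Atr was closest to Sycp3, a component of the chromosome axis, at 0.11, ahead of Cbwd1 and Kdm4b. Mdc1 was closest to Phyhipl, Fmnl3 and Dip2c, at 0.10 to 0.18, and among the 10 genes it was closest to Atr, at 0.27. Trip13 was closest to Pik3r2, Ahr and Bid, at 0.093 to 0.15, and Chek2, the closest of the 10 genes, was in place 415. Chek2 was closest to Pgap1, Aqr and Rnf169, and Chek1 to Mapk14, Brd9 and Nelfa. Atm was closest to Igf2r, Pik3r3 and Ubr2, Topbp1 to Tbk1, Cpsf7 and Zbtb21, and Brca1 to Rad51c, a recombination gene, ahead of Rbm14 and Bclaf1. These distances describe the same 9 libraries that gave the fold changes, and so share their depth and composition.

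Partners of the 10 proteins were taken from 5 lists with 49 genes, of which 48 were tested in each comparison. Trp63 was too low for the comparisons with In/B, and Trp73 for the comparison between the PL groups. Against In/B, RA-sufficient PL had 5 called higher (10.4%) and 10 lower (20.8%), beside 26.1% and 19.3% of all genes. RA-deficient PL had 6 called higher (12.5%) and 9 lower (18.8%), beside 11.4% and 11.8%. Between the PL groups 2 were called higher and 1 lower in RA-deficient PL, beside 4.47% and 11%. The share of partner genes called higher between RA-sufficient PL and In/B was below that of all genes.

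Among 6 partners of the HORMADs and TRIP13, the 2 called higher in both PL groups were Sycp2 and Ccdc36. Sycp2, an axis component, was at 305, 543 and 540 CPM in In/B, 1648, 2251 and 2150 CPM in RA-sufficient PL and 1903, 1741 and 2469 CPM in RA-deficient PL, with a log2 fold change of 2.18 ± 0.23 and 2.31 ± 0.23 against In/B. Ccdc36, which encodes the HORMAD1 partner IHO1, had log2 fold changes of 1.44 ± 0.14 and 1.63 ± 0.13. Between the PL groups the log2 fold change was 0.01 for Sycp2 and 0.08 for Ccdc36, and libraries overlapped for both. Mad2l2, which encodes a small HORMA domain protein, was called lower in RA-deficient PL, at -1.36 ± 0.18, and in RA-sufficient PL it had a log2 fold change of -0.68 ± 0.33 with overlap. That overlap came from library 1 of RA-sufficient PL, at 63.2 CPM against 60.5 to 68.8 CPM in In/B. Libraries 2 and 3 were at 27.1 and 25.1 CPM, and RA-deficient PL was at 19.5 to 26.3 CPM.

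The list of ATR activators, the RAD9-RAD1-HUS1 clamp and RPA held 14 genes. In both PL groups the germ cell paralogues Rad9b and Hus1b were the 2 called higher than In/B. Hus1b was at 1.51 to 2.09 CPM in In/B, 8.0 to 11.6 CPM in RA-sufficient PL and 7.26 to 16.9 CPM in RA-deficient PL. Rad9a, the widely expressed clamp subunit, went from 39.0 to 45.1 CPM in In/B to 7.51 to 12.4 CPM in RA-sufficient PL and 9.95 to 12.3 CPM in RA-deficient PL, log2 fold changes of -2.09 ± 0.24 and -1.73 ± 0.20. Rad9b was at 29.6 to 35.6 CPM in In/B, 41.1 to 80.9 CPM in RA-sufficient PL and 77.7 to 116 CPM in RA-deficient PL. Rad9b was called at a log2 fold change of 1.67 in RA-deficient PL. In RA-sufficient PL it was only just past the minimum fold, at 1.01, and lost its call under 9 of 13 alternatives, with a range from 0.81 to 1.24.

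Rpa1 and Rpa2, subunits of the protein that coats single-stranded DNA, were called lower in both PL groups. The log2 fold change of Rpa2 was -1.92 ± 0.13 in RA-sufficient and -1.08 ± 0.20 in RA-deficient PL, where without library 3 it was -0.89 and not called, and for Rpa1 it was -1.10 ± 0.14 and -1.15 ± 0.12. Etaa1, an ATR activator that acts beside TOPBP1, completed the 4 genes called lower in RA-sufficient PL, at 18.97 to 23.3 CPM against 43.2 to 51.5 CPM in In/B. Timeless, a replication fork gene, was the 1 called higher in RA-deficient than in RA-sufficient PL, at 272, 275 and 165 CPM against 93.2, 99.2 and 103 CPM, with library 3 again the lowest of its group and no call for library 3 alone, at 0.75. Rad9b, Hus1b, Etaa1 and Timeless are named to complete these counts, after their values were seen.

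Of 5 genes of the MRN complex and ATM activation, 0 were called by edgeR's quasi-likelihood test in RA-sufficient PL, and Atmin, an ATM cofactor, was called lower in RA-deficient PL at -1.19 ± 0.19. In RA-sufficient PL Atmin had a log2 fold change of -0.84 ± 0.12 (edgeR's quasi-likelihood test, Benjamini-Hochberg adjusted p = 2.99e-04), short of the minimum fold. Of 13 genes of γH2AX signalling and BRCA1 complexes only Brip1 was called against In/B. It encodes a helicase that binds BRCA1 and was at 85.4 to 97.5 CPM in In/B, 144 to 200 CPM in RA-sufficient PL (log2 fold change 1.04 ± 0.14, a call lost under 4 of 13 alternatives) and 292 to 363 CPM in RA-deficient PL (1.99 ± 0.13). The PL groups did not overlap, with a log2 fold change of 0.83 ± 0.14 (edgeR's quasi-likelihood test, Benjamini-Hochberg adjusted p = 0.00798) short of the minimum fold.

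Checkpoint effectors made up the list with the lowest median, -1.14 in RA-sufficient PL and -1.08 in RA-deficient PL against In/B, over 10 tested genes. In RA-sufficient PL 6 were called lower and 0 higher by edgeR's quasi-likelihood test, and all 10 estimates were below 0, beside 19.3% and 26.1% of all genes called lower and higher. Of these 6, Trp73 had very few reads, at 0.62 to 1.64 CPM in In/B and 0.04 to 0.30 CPM in RA-sufficient PL. Its call was lost under 4 of the 12 alternatives in which it was tested. Trp73 is named after its values were seen. In RA-deficient PL 4 were called lower and 1, Pkmyt1, higher at 1.44 ± 0.32, with 2 estimates above 0, beside 11.8% and 11.4% of all genes. Trp53, which encodes the effector p53, was at 111 to 134 CPM in In/B, 49.0 to 52.3 CPM in RA-sufficient PL and 30.8 to 37.8 CPM in RA-deficient PL, log2 fold changes of -1.21 ± 0.13 and -1.69 ± 0.16. Ppm1d, a phosphatase that turns off checkpoint signals, had log2 fold changes of -1.45 ± 0.12 and -1.55 ± 0.15. Wee1, the kinase that holds back CDK1, was called lower in RA-sufficient PL at -1.07 ± 0.12, a call lost at -0.998 without library 1 of that group, and in RA-deficient PL its log2 fold change was -0.17 ± 0.13.

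Between the PL groups, Pkmyt1 and Cdkn1a were the effectors called. Pkmyt1, a kinase related to WEE1, was at 52.6, 55.7 and 38.8 CPM in RA-deficient and 18.2, 17.3 and 17.7 CPM in RA-sufficient PL. Cdkn1a, which encodes the CDK inhibitor p21, was at 6.96, 8.72 and 7.39 CPM in RA-deficient PL and at 45.6, 18.98 and 19.01 CPM in RA-sufficient PL, where the first library, with the highest summed level of pachytene and spermatid genes, stood apart. The call of Cdkn1a was lost without RA-deficient PL library 1 and for library 3 alone. Against In/B, Pkmyt1 was not called for library 3 alone. Both were named after their values were seen. Wee1 had a log2 fold change of 0.79 ± 0.14 between the PL groups (edgeR's quasi-likelihood test, Benjamini-Hochberg adjusted p = 0.00859) without overlap, short of the minimum fold.

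**Figure D5:**
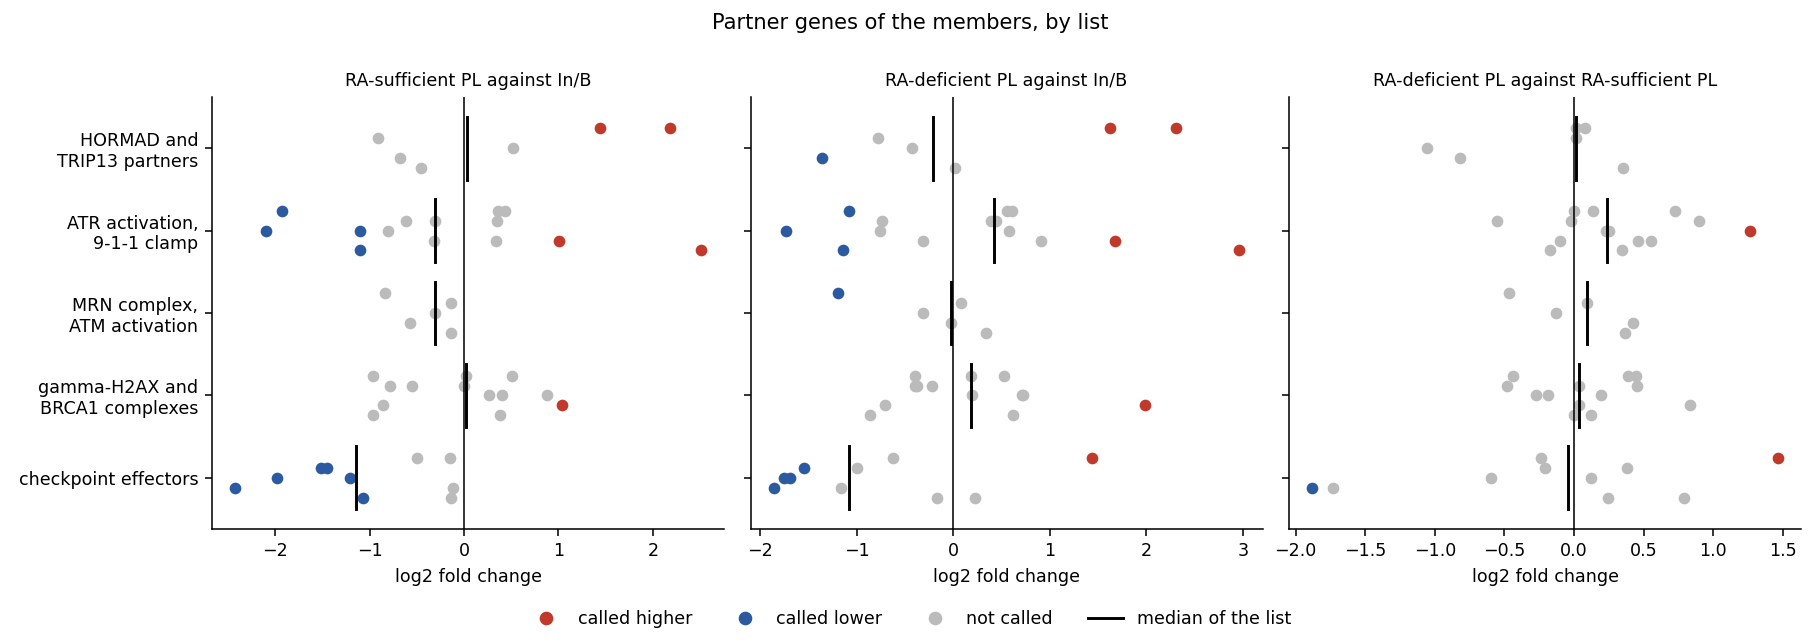
log2 fold changes (horizontal axis) of the 48 tested partner genes, by list, in the 3 comparisons, with a point for each gene coloured by its call and a line at the median of the list. The checkpoint effectors have medians of -1.14 and -1.08 against In/B, while the other 4 lists have medians nearer to 0.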

How the data were processed

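Messenger RNA was sequenced from sorted cells of 3 groups with 3 libraries each. The authors used cutadapt 1.9 to trim single-end reads, STAR 2.5.2b to align them to mm9 and featureCounts to assign them to genes, and deposited raw counts per gene, without normalization. Gene annotation and strand setting are not given in the sources used here. All 9 columns matched a sample by name, and 0 were left unused.

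Pairs of groups were compared with edgeR 4.0.16 in R 4.3.3, with TMM scaling, filterByExpr, the quasi-likelihood test and Benjamini-Hochberg adjustment over all genes tested, and the thresholds of the study's methods. CPM were computed from the counts with TMM over all 9 libraries. Without TMM, 3 counts correspond to 0.111 to 0.238 CPM. The test was tried on simulated data, where 123 of 124, 107 of 119 and 93 of 124 changed genes of at least 10 CPM were recovered in the order RA-sufficient PL against In/B, RA-deficient PL against In/B and RA-deficient against RA-sufficient PL. Gene positions and merged exon lengths are from GENCODE M1 on mm9. Figures were drawn with matplotlib 3.10.9.

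The 10 members and the gene lists were chosen with earlier results of these data known. Named genes are all 10 members, the 3 partner genes of lowest p among the called genes of each list, and the 3 genes nearest in pattern to each member. Of these, 1 gene is not reported here. Alternatives were RLE or library size scaling, no filter or a mean of 50 counts, a fit of all 9 libraries, a replicate block, DESeq2 1.42.0, other thresholds, each library left out in turn and, added after seeing the data, RA-deficient PL by library 3 alone.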

Additional observations from a re-analysis of the deposited data

Results flagged for a closer look

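Trip13 differed in level between the PL groups. Its log2 fold change from In/B was -2.11 in RA-sufficient PL and -0.73 in RA-deficient PL, and the test of the difference, RA-deficient against RA-sufficient PL, gave 1.26 ± 0.23 (SE; edgeR's quasi-likelihood test, Benjamini-Hochberg adjusted p = 0.0102). All 3 RA-deficient PL libraries were above all 3 RA-sufficient PL libraries. Kit was at 561 and 521 CPM in RA-deficient PL libraries 1 and 2, and the part of spermatogonial RNA in the Trip13 difference was not tested. With RA-deficient PL library 3 alone the difference was 0.72 (edgeR's quasi-likelihood test, Benjamini-Hochberg adjusted p = 0.0618).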

How the results depend on the processing

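The number of members called stayed at 7, at 5 to 6 and at 1 as each library was left out in turn, in the order RA-sufficient PL against In/B, RA-deficient PL against In/B and RA-deficient against RA-sufficient PL. The number of partner genes called was 14 to 16, 14 to 15 and 2 to 4. On the adjusted p alone, with no minimum fold, 30 and 23 partner genes were called against In/B in RA-sufficient and RA-deficient PL, and 3 members and 8 partner genes between the PL groups. Beside these, 9748 of 15001, 5459 of 14877 and 3629 of 15352 genes tested passed the adjusted p in the 3 comparisons, in the same order. At an adjusted p of at most 0.01 edgeR's quasi-likelihood test called 0 members between the PL groups, where DESeq2 called 1 at the usual thresholds. By edgeR's quasi-likelihood test 7 of the 10 had an unadjusted p under 0.05 there, a count not set beside the share of all genes. The single reversal was Atr between the PL groups without RA-deficient PL replicate 3, at -0.048, where leaving out other libraries gave up to 0.34. Of the other values of single members, 398 kept their side, 4 passed the thresholds and 7 dropped below them. With library 3 alone for RA-deficient PL, which assumes that it varies like the other group, the 1 member called between the PL groups was Mdc1 in place of Trip13. Replicate numbers did not pair the samples, with correlations of deviations from -0.27 to 0.13. With the replicate block 7, 6 and 1 members and 14, 15 and 3 partner genes were called. Causes of these changes were not tested. A member not called between the PL groups may still differ.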
